A study of Mus musculus with 93 samples.

Results

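Pre-macrophages (pMac) of mouse embryos of E10.25 were compared with pMac of E9.5 (E for the embryonic day). All libraries labelled pMac were taken, which gave 13 of the 93 bulk libraries of the series. The 4 libraries of E10.25 came from brain, limbs, liver and yolk sac, 1 each, and the 9 of E9.5 came from brain (4), the caudal embryo (3) and yolk sac (2). The other 80 libraries held erythro-myeloid progenitors (EMP, 6 libraries) and macrophages (Mac, 74 libraries). All were SMART-Seq2 libraries of polyadenylated RNA from sorted cells, and the labels used here give no strain, genotype or sort gate. The replicates are said to be technical and biological without saying which is which, so p-values measure only the spread between libraries. Limbs and caudal embryo carry 1 tissue group label, Caudal / skin, and liver has no partner at E9.5.

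Tissue macrophages of the embryo descend from EMP that form in the yolk sac, enter the circulation and seed the fetal liver and other tissues. On the way they pass through the pMac stage, in which progenitor genes such as Kit go down and the macrophage receptors Csf1r and Cx3cr1 come up before full differentiation. Csf1r is the receptor for the macrophage growth factors CSF1 and IL-34, and Cx3cr1 binds the chemokine fractalkine. The comparison of both ages asks how this intermediate stage differs between the earlier and the later day.

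Values are given as log2 levels. A gene's level is the log2 of the sum of its transcripts' deposited values on the linear scale, so a difference of 1 is a factor of 2. Each library's lowest values lay in a narrow band, and a common floor of 4.55 was set 0.5 above the highest of these bands. A transcript below about that level was not clearly detected. A gene that sums several such transcripts can lie above 4.55, as Egr2 did, with up to 5.89 and no transcript above the floor. A gene was tested if at least 1 of its transcripts lay at 5.55 or more in at least 4 libraries, which held for 11233 of 14189 genes. A gene was called if its adjusted p (limma, Benjamini-Hochberg over all genes tested) was under 0.05 and its difference at least 1 in size. The deposited values are no counts, so depth and counting error are unknown.

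Between 23963 and 28386 of 37521 transcripts lay above the floor in each library, with no difference between the ages beyond the spread (exact permutation test, 2-sided, p = 0.305). The E9.5 libraries were the less alike: the median standard deviation (SD) of a gene was 0.79 over the 9 libraries of E9.5 and 0.44 over the 4 of E10.25, and 9629 of the 11233 genes had the smaller SD at E10.25. Within E9.5 the median SD was 0.81 in brain, 0.81 in caudal embryo and 0.26 in yolk sac (n = 2), so the yolk sac pair did not share the wide spread. Pearson correlations across genes were 0.855 to 0.930 between libraries of E10.25 and 0.725 to 0.913 between libraries of E9.5 from 1 tissue. Brain replicate 4 and caudal replicates 1 and 3 of E9.5 had the fewest transcripts above the floor, between 23963 and 24170, and caudal replicate 3 had the lowest correlations with the others. The band of low values lay above 3.4 in 4 libraries (brain replicates 1 and 4 and caudal replicate 1 of E9.5, and brain of E10.25) and at 3.15 or less in the other 9. The labels name no such sets.

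Both marker genes were high in every pMac library. Csf1r lay at 13.03 in brain, 12.97 in liver, 13.11 in limbs and 13.05 in yolk sac at E10.25, and between 12.31 and 14.20 (median 12.83) at E9.5. Its E10.25 values lie inside the E9.5 range, and the difference was −0.06 (95% interval −0.74 to 0.63, exact permutation test, 2-sided, p = 0.86). Cx3cr1 lay at 12.02, 12.40, 12.07 and 12.19 in brain, limbs, liver and yolk sac of E10.25 and between 10.90 and 13.30 (median 12.09) at E9.5. Its difference was 0.26 (95% interval −0.50 to 1.03, exact permutation test, 2-sided, p = 0.522). EMP of E10.25 had Csf1r at 9.73 ± 0.65 and Cx3cr1 at 8.25 ± 0.39 (mean ± SD, n = 4), means that lie below every pMac library. All 25 genes of a macrophage core list were high enough in the pMac libraries to be tested.

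No gene was called between the ages (0% of 11233 genes tested), and the smallest adjusted p was 0.183. An unadjusted limma p under 0.05 was found for 567 genes (5.05%), of which 156 were higher at E10.25 (1.39%) and 411 lower (3.66%). In 78 genes (0.694%) all libraries of E10.25 lay on 1 side of all libraries of E9.5, with 16 of them higher (0.142%) and 62 lower (0.552%) at E10.25. Over all genes tested the median difference was −0.08, and 57.8% of the differences were below 0. The median standard error (SE) of a difference was 0.43, so most differences of 1 or less are within the error of these libraries.

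**Figure D1:**
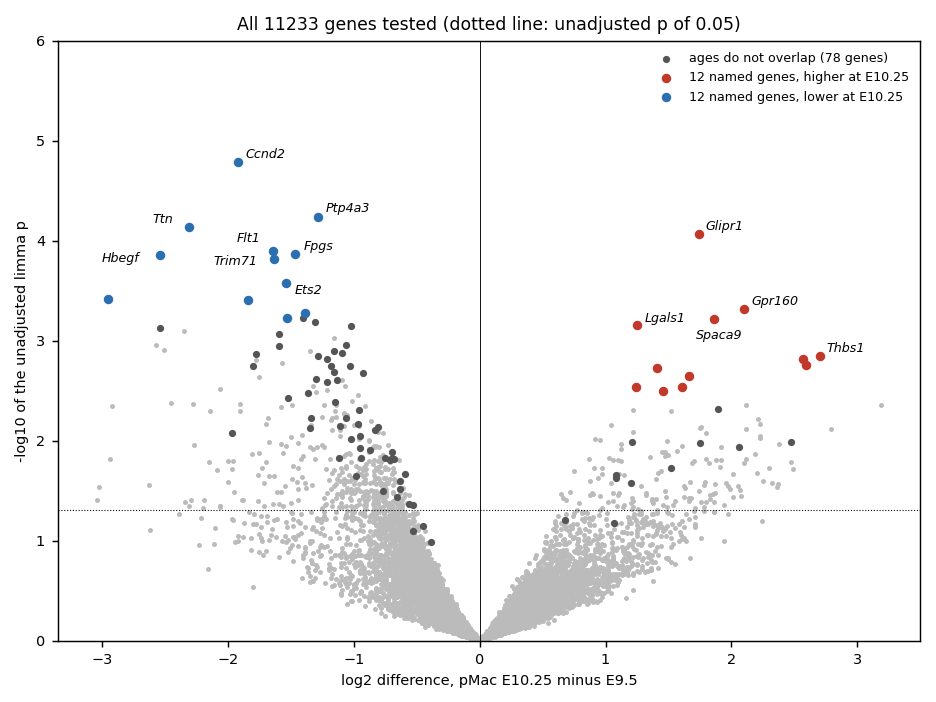
Difference between the ages (x axis, log2, E10.25 minus E9.5) and unadjusted limma p (y axis, −log10) for the 11233 genes tested. No gene passed the adjusted threshold, and the 12 genes with the smallest p in each direction are coloured, with dark grey for the genes whose ages do not overlap.

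The count of calls depended on how much each library weighed. In a fit that gives each library a weight from its own residual spread, 110 genes were called (0.979%), 45 higher (0.401%) and 65 lower (0.579%) at E10.25, and 98 of these had an unadjusted p under 0.05 without weights. With weights the unadjusted limma p was under 0.05 for 1777 genes (15.8%). The weights were lowest for brain replicate 4 (0.19), caudal replicate 3 (0.21), caudal replicate 1 (0.40) and brain replicate 1 (0.50) of E9.5 and highest for limbs of E10.25 (3.20). Leaving out the 3 libraries with the fewest transcripts gave 2 called genes, Glipr1 and Ttn, and 1350 genes (12%) at an unadjusted limma p under 0.05. With 1 library left out at a time that share was 3.05% to 6.45%. Within a tissue no gene was called (0%), and the unadjusted limma p was under 0.05 for 280 genes in brain (2.49%), 105 between limbs and caudal embryo (0.935%) and 48 in yolk sac (0.427%), each with 1 library of E10.25 that is assumed to vary like the others.

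The genes described next are the 12 with the smallest p in each direction, and their direction and their p come from the same comparison, so none is a call. They are taken by the role of their products, and their values in every library are plotted below by age and tissue. Where 4 values of E10.25 stand without their tissues, the order is brain, limbs, liver and yolk sac. The 12 that were lower at E10.25 come first, since these include the gene with the smallest p of all.

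**Figure D2:**
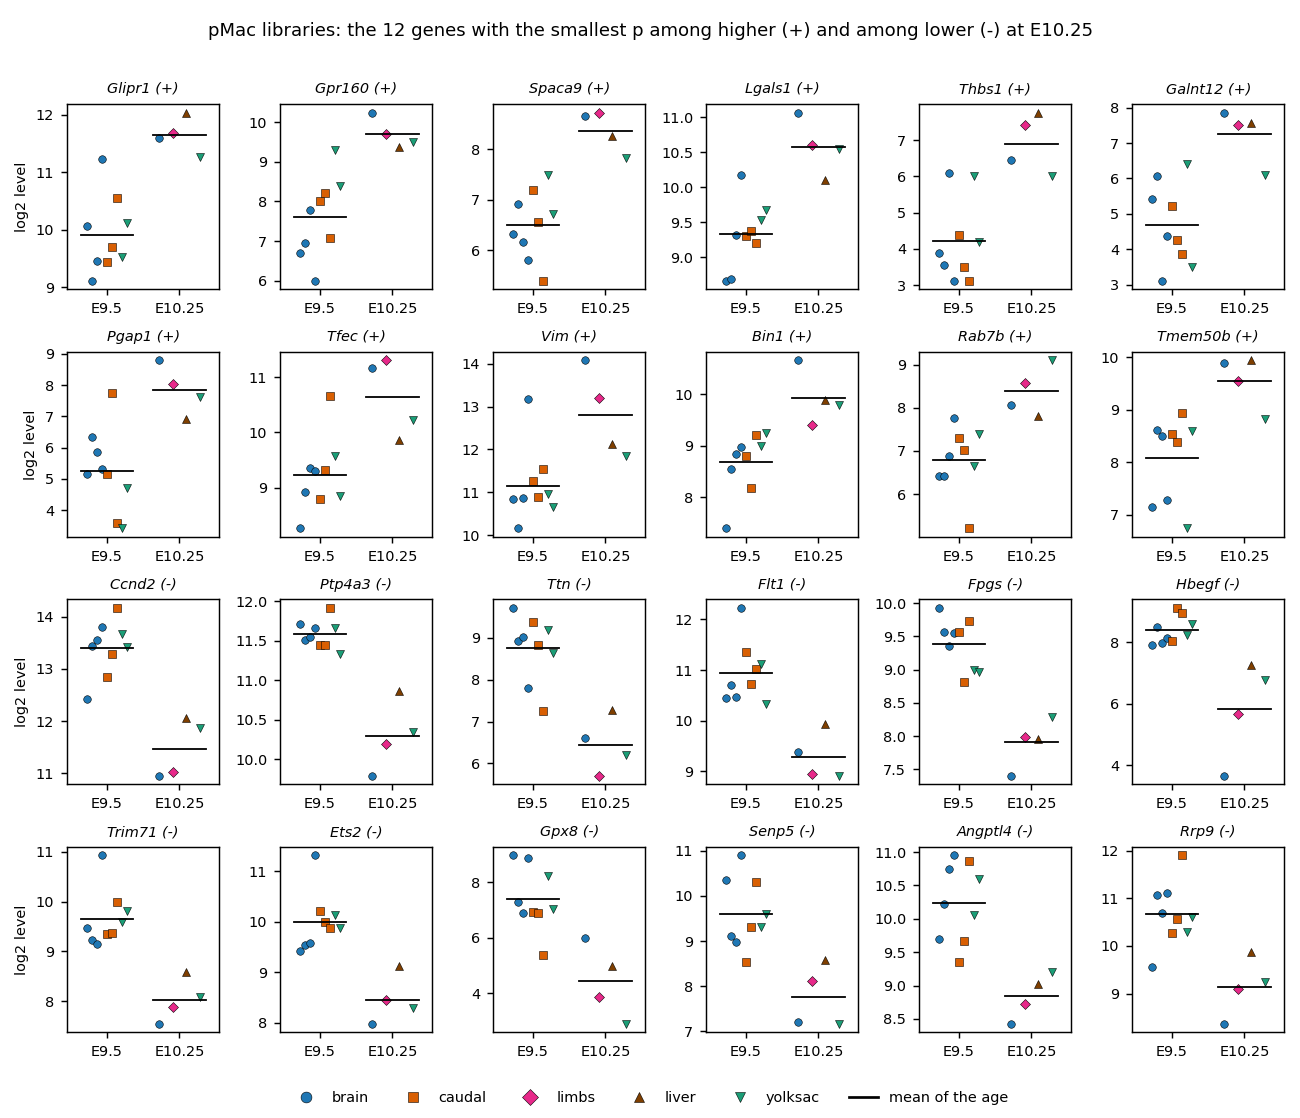
Log2 level (y axis) of the 12 genes with the smallest p among those higher (+) and among those lower (-) at E10.25, in each of the 13 pMac libraries, by age (x axis) and tissue (colour and shape), with a line at the mean of each age. In 13 of the 24 genes the ages do not overlap, for example in Ccnd2, Ptp4a3, Glipr1 and Gpr160. Over all 11233 genes tested this held for 78 (0.694%), and the 24 were picked by their p between the same ages.

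Ccnd2 encodes cyclin D2, which drives cells from G1 into S phase with CDK4 and CDK6. The gene lies on chromosome 6, 127125162 to 127152193 (mm10, minus strand). It lay at 10.95 in brain, 12.06 in liver, 11.02 in limbs and 11.86 in yolk sac of E10.25, and between 12.42 and 14.17 (median 13.43) at E9.5. The ages do not overlap, and brain replicate 1 was the lowest library of E9.5. The difference was −1.92 ± 0.33 (SE), 3.80-fold lower at E10.25 (limma, adjusted p = 0.183). It was −2.35 within brain, −2.41 between limbs and caudal embryo and −1.68 within yolk sac. Ccnd2 was called with library weights (limma, adjusted p = 1.68e-04), after median scaling, without brain replicate 1 of E9.5, and with the band set of the library as a term. Over all 32 alternatives its difference ran from −2.41 to −1.51.

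Trim71, Ets2 and Ptp4a3 were not called either, and in each of them every E9.5 library lay above every E10.25 library. Trim71 (LIN41) is an RNA-binding ubiquitin ligase that is known as a target of let-7 and for timing in development. Trim71 lay at 7.55, 7.89, 8.59 and 8.08 in brain, limbs, liver and yolk sac of E10.25, and between 9.15 and 10.93 (median 9.47) at E9.5. The difference was −1.63 ± 0.34 (limma, adjusted p = 0.215). Ets2, a transcription factor downstream of RAS and MAP kinase signals, lay at 7.98, 8.44, 9.12 and 8.29 at E10.25 in the same order and between 9.43 and 11.32 (median 9.88) at E9.5. Its difference was −1.54 ± 0.34 (limma, adjusted p = 0.331). The highest E9.5 value of Trim71 and of Ets2 was that of brain replicate 4, without which the differences were −1.47 and −1.38. Ptp4a3 (PRL-3), a phosphatase linked to growth and migration, lay at 9.79, 10.20, 10.87 and 10.35 at E10.25. At E9.5 it had a narrow range of 11.33 to 11.92 (median 11.55), and the difference was −1.28 ± 0.25 (limma, adjusted p = 0.215).

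Of the 12 lower genes, 3 make proteins that act outside the cell or at its surface on vessels, lipids and growth signals. Flt1 (VEGFR1) is a receptor for VEGF-A and placental growth factor on endothelium and on cells of the monocyte lineage. Flt1 lay at 9.39, 8.95, 9.93 and 8.91 in brain, limbs, liver and yolk sac of E10.25, below the E9.5 range of 10.33 to 12.23 (median 10.73). The difference was −1.64 ± 0.34 (limma, adjusted p = 0.215). Flt1 also stands on the list of endothelial genes, in which 11 genes were tested, 6 of them lower and 5 higher. The median difference of that list was −0.29, and it was −0.15 after median scaling, −0.59 over the 9 libraries with the lower band at 3.15 or less and −1.06 with library weights. Cdh5 and Pecam1, both also on the endothelial list, differed by −0.36 ± 0.81 and 0.28 ± 0.47, and their ages overlap. The part of endothelial RNA in the Flt1 difference was not tested. Hbegf, a ligand of the EGF receptor, lay at 3.65 in brain, 7.28 in liver, 5.67 in limbs and 6.79 in yolk sac of E10.25, so it was under the floor in brain. At E9.5 it lay between 7.93 and 9.13 (median 8.24), with a difference of −2.54 ± 0.53 (limma, adjusted p = 0.215). Angptl4, a secreted inhibitor of lipoprotein lipase, lay at 8.43, 8.73, 9.02 and 9.20 at E10.25 and between 9.35 and 10.95 (median 10.22) at E9.5. Its difference was −1.39 ± 0.33 (limma, adjusted p = 0.419), and the nearest libraries of the ages, yolk sac of E10.25 and caudal replicate 1 of E9.5, are 9.20 and 9.35.

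The rest of the lower genes make enzymes and structural proteins. Fpgs adds glutamate to folates and keeps them in the cell; it lay at 7.40, 7.99, 7.96 and 8.29 at E10.25, below the E9.5 range of 8.82 to 9.93. Its difference was −1.47 ± 0.31 (limma, adjusted p = 0.215). Ttn, the giant titin of muscle sarcomeres, lay at 6.60, 5.70, 7.27 and 6.20 at E10.25 and between 7.25 and 9.72 (median 8.93) at E9.5. The ages of Ttn overlap only through liver of E10.25 (7.27) and caudal replicate 3 of E9.5 (7.25). The difference of Ttn was −2.31 ± 0.45 (limma, adjusted p = 0.215), or −2.58 without liver and −2.50 without caudal replicate 3. Ttn sums 7 transcripts, so its E10.25 values may be background. EMP and Mac of that day, at 6.70 and 6.40, lay too low to be tested, so the size of the Ttn difference is uncertain. Rrp9, a component of the U3 ribonucleoprotein that processes ribosomal RNA, Senp5, a SUMO protease, and Gpx8, a glutathione peroxidase of the endoplasmic reticulum, had overlapping ages and differences of −1.53, −1.84 and −2.95. The largest of these, Gpx8, lay at 5.99, 3.85, 4.97 and 2.90 at E10.25, near or below the floor, so its size is uncertain.

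Among the 12 higher genes Glipr1, a member of the CAP family of secreted and membrane proteins, had the smallest p. It lies on chromosome 10, 111985448 to 112002631 (mm10, minus strand). It lay at 11.59 in brain, 12.04 in liver, 11.69 in limbs and 11.27 in yolk sac of E10.25 and between 9.11 and 11.23 (median 9.70) at E9.5. The ages do not overlap, but the highest E9.5 library, brain replicate 4 with 11.23, lies just under yolk sac of E10.25. The difference was 1.74 ± 0.35, 3.33-fold higher at E10.25 (limma, adjusted p = 0.215). It was 1.62 within brain, 1.80 between limbs and caudal embryo and 1.45 within yolk sac. Glipr1 was called with library weights (limma, adjusted p = 1.51e-04), after median scaling, after quantile normalization, without brain replicate 4, and without the 3 libraries with the fewest transcripts.

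Several of the higher genes act in the cytoskeleton, at membranes or in the matrix. Vim encodes vimentin, the intermediate filament of mesenchymal and myeloid cells. Vim lay at 14.08, 13.19, 12.12 and 11.85 in brain, limbs, liver and yolk sac of E10.25, and between 10.16 and 13.17 (median 10.89) at E9.5. Only brain replicate 4 of E9.5 reached the E10.25 range, since the next E9.5 value was 11.55, and the difference was 1.66 ± 0.47 (limma, adjusted p = 0.555). Without that library the difference of Vim was 1.91 (limma, adjusted p = 0.103). Lgals1 (galectin-1), a lectin that binds galactosides, lay at 11.07, 10.60, 10.10 and 10.55 at E10.25 and between 8.66 and 10.18 (median 9.32) at E9.5. Its ages overlap through the same library, which had 10.18, and the difference was 1.25 ± 0.31 (limma, adjusted p = 0.419), or 1.36 without it (limma, adjusted p = 0.135). Bin1, which bends membranes in endocytosis, lay at 10.66, 9.40, 9.88 and 9.80 at E10.25 and between 7.40 and 9.25 at E9.5, with a difference of 1.24 ± 0.36 (limma, adjusted p = 0.598). Thbs1, the matrix protein thrombospondin-1, had the highest difference of the group, 2.70 ± 0.72 (limma, adjusted p = 0.48). Thbs1 lay under the floor in 7 of 9 libraries of E9.5, so the size of this difference is uncertain.

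Rab7b, a small GTPase of late endosomes and lysosomes, lay at 8.06, 8.59, 7.82 and 9.11 in brain, limbs, liver and yolk sac of E10.25. At E9.5 it lay between 5.20 and 7.76 (median 6.89), which leaves the ages just apart, and the difference was 1.61 ± 0.47 (limma, adjusted p = 0.598). Tfec, a transcription factor of the MiT/TFE family found in macrophages, lay at 11.17, 11.31, 9.87 and 10.22 at E10.25 and between 8.26 and 10.66 (median 9.30) at E9.5. Caudal replicate 3 (10.66) was the only E9.5 library inside the E10.25 range of Tfec, and the difference was 1.41 ± 0.39 (limma, adjusted p = 0.491), or 1.59 without it. Gpr160, an orphan G protein-coupled receptor, lay at 10.24, 9.69, 9.38 and 9.5 at E10.25 and between 6.0 and 9.29 (median 7.79) at E9.5. Gpr160 sums 7 transcripts, so its lowest values may be background and the size of its difference is uncertain. The highest E9.5 values of Gpr160 were those of the yolk sac, 9.29 and 8.38, and its difference was 3.38 within brain, 1.92 between limbs and caudal embryo and 0.67 within yolk sac. A test of whether the age difference varied between the 3 tissue pairs called no gene (limma, 0 genes at an adjusted p under 0.05, 53 genes or 0.472% at an unadjusted p under 0.05). Spaca9, Galnt12, Pgap1 and Tmem50b had differences of 1.86, 2.57, 2.59 and 1.46, and in Spaca9 the ages do not overlap. Galnt12 and Pgap1 had E9.5 medians of 4.37 and 5.17, near or below the floor, so the size of their differences is uncertain. Galnt12 starts mucin-type O-glycosylation and Pgap1 trims the lipid of GPI anchors.

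The same 24 genes were then read in EMP and Mac of E10.25, libraries that took no part in choosing them. These EMP came from liver and yolk sac only, and these Mac also from brain and limbs. All 12 genes that were higher in the later pMac had a higher mean in Mac than in EMP, and all 12 that were lower had a lower mean in Mac. Some of these differences were small, 0.16 in Thbs1, −0.12 in Senp5 and −0.24 in Ets2 (Mac minus EMP). Against EMP of E9, with means of 6.22, 8.23 and 8.02, the Mac means of these genes, 5.93, 8.46 and 8.53, lay on the other side. The rest of the 24 kept their direction. Over all 11233 genes tested between the ages, 56.2% had the lower mean in Mac. Of the 12 higher genes, 7 passed the test between EMP and Mac in that direction (limma, against 7.33% of all genes), and of the 12 lower genes 4 passed it (against 5.69%). The genes that passed were Rab7b, Pgap1, Lgals1, Vim, Gpr160, Tfec and Bin1 on the higher side and Ccnd2, Ptp4a3, Trim71 and Rrp9 on the lower side. Ttn lay too low in these libraries to be tested.

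Of these genes Rab7b differed most, from 4.53 ± 0.66 in EMP (n = 4) to 9.64 ± 1.05 in Mac (n = 11) (limma, adjusted p = 1.80e-06). The EMP means of Rab7b and of Pgap1 (4.54) lie under the floor, so the size of these 2 differences is uncertain. The pMac means of Rab7b, 6.78 ± 0.75 at E9.5 and 8.39 ± 0.57 at E10.25, lie between EMP and Mac. Lgals1 had 8.80 ± 0.90 in EMP, 9.33 ± 0.47 and 10.58 ± 0.40 in pMac of E9.5 and E10.25, and 12.25 ± 0.70 in Mac. Ccnd2 had 12.31 ± 0.25 in EMP and 9.23 ± 1.63 in Mac, with 11.47 ± 0.57 in pMac of E10.25 between them. The E9.5 pMac, at 13.40 ± 0.52, had more Ccnd2 than either end. Trim71 was in the same order, with 9.66 ± 0.55 in E9.5 pMac, 8.57 ± 0.55 in EMP of E10.25, 8.03 ± 0.43 in E10.25 pMac and 5.73 ± 1.37 in Mac.

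Most of the 24 genes did not lie between EMP and Mac of E10.25 at both ages. Both pMac means lay between them in 5 genes, Rab7b, Lgals1, Pgap1, Vim and Ptp4a3. In 8 genes, Ccnd2 and Trim71 among them, the pMac mean of E10.25 alone lay between EMP and Mac. In 11 genes the E10.25 pMac mean lay outside, as in Tfec, with 10.64 ± 0.71 against 7.79 ± 1.91 in EMP and 9.73 ± 0.78 in Mac, and in Fpgs, with 7.91 ± 0.37 against 9.96 ± 0.81 and 8.56 ± 0.92. Glipr1 was higher in pMac of E10.25 (11.65 ± 0.31) than in EMP (8.70 ± 1.13) or Mac (9.33 ± 0.75) of that day, and it did not pass the test between EMP and Mac (limma, adjusted p = 0.429). Flt1 was highest in pMac of E9.5, at 10.94 ± 0.60, against 9.16 ± 0.34 in EMP and 7.58 ± 1.07 in Mac of E10.25. Ttn had 9.46 ± 0.39 in EMP of E9 (n = 2) and 8.75 ± 0.77 in pMac of E9.5, and 6.70 ± 0.28, 6.44 ± 0.66 and 6.40 ± 0.47 in EMP, pMac and Mac of E10.25, so its high values are those of the earlier day in both cell types.

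**Figure D3:**
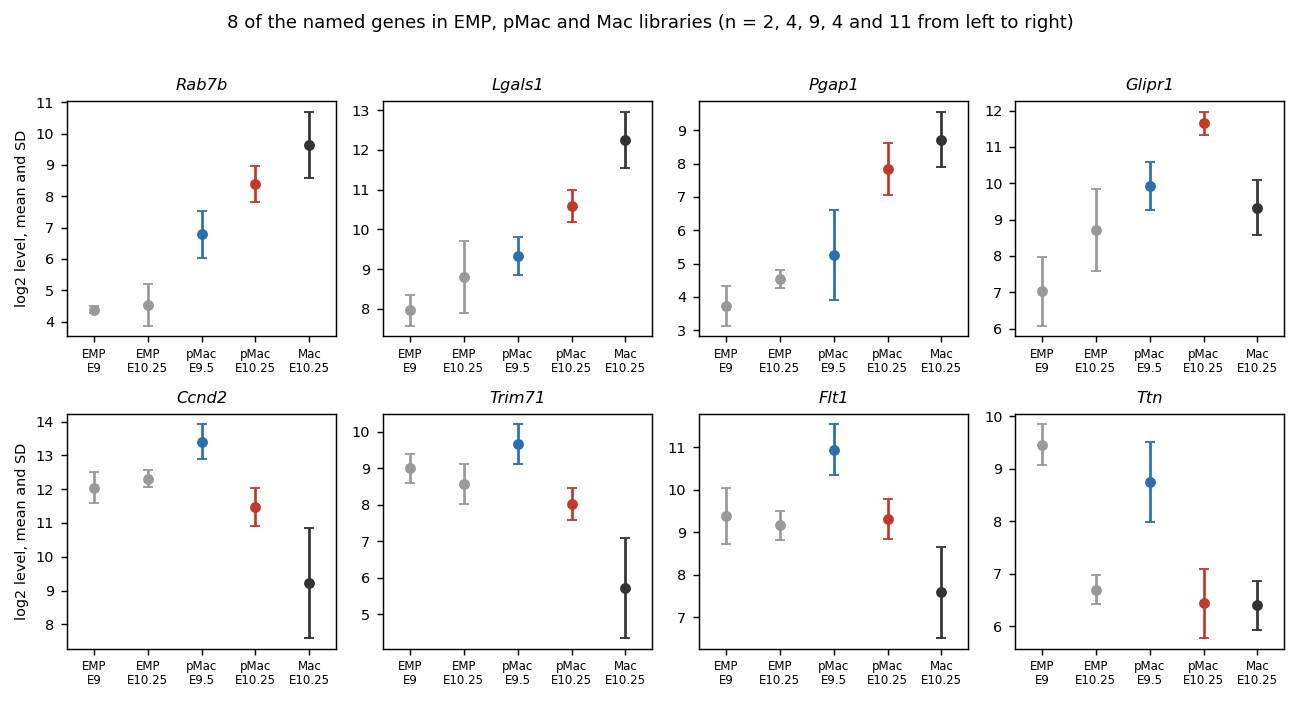
Log2 level (y axis, mean and SD over libraries) of 8 of the 24 genes in EMP of E9 and E10.25, pMac of E9.5 and E10.25, and Mac of E10.25 (x axis). Rab7b, Lgals1 and Pgap1 go up in order from EMP to Mac, Glipr1 is highest in pMac of E10.25, and Ccnd2, Trim71 and Flt1 are highest in pMac of E9.5. The EMP means of Rab7b and Pgap1 lie under the floor.

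The place of each library between EMP and Mac was also measured over many genes. The scale was set by 1103 genes that differed by at least 2 between EMP and Mac of E10.25 (limma, 582 higher and 521 lower in Mac) and runs from 0 at the EMP mean to 1 at the Mac mean. The EMP that set it came from liver and yolk sac only, and the Mac also from brain and limbs. Stage and tissue are thus partly confounded on this scale. Among pMac of E10.25 brain lay at 0.74, limbs at 0.71, yolk sac at 0.65 and liver at 0.58. At E9.5 the libraries lay between 0.49 and 0.66, with brain at 0.56, 0.49, 0.58 and 0.66, caudal embryo at 0.61, 0.54 and 0.66 and yolk sac at 0.63 and 0.59. The means were 0.67 ± 0.07 (n = 4) and 0.59 ± 0.06 (n = 9), a difference of 0.08 towards Mac (exact permutation test, 2-sided, p = 0.0643). Brain and limbs of E10.25 lay above every library of E9.5, whereas yolk sac and liver lay inside their range. The EMP libraries of E9, both from yolk sac, did not set the scale and lay at 0.17 and 0.21. Those of E10.25 lay between −0.08 and 0.07. Position thus also differed between days within EMP, with the earlier day nearer to Mac, so it does not measure stage alone.

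Over the genes that are lower in Mac alone, the means were 0.70 ± 0.07 at E10.25 and 0.64 ± 0.03 at E9.5 (exact permutation test, 2-sided, p = 0.0336, and 0.0965 after Benjamini-Hochberg adjustment over the 3 positions tested). Over the genes that are higher in Mac they were 0.64 ± 0.07 and 0.55 ± 0.11 (exact p = 0.169). Within tissues the difference in position over all axis genes was 0.17 in brain, 0.11 between limbs and caudal embryo and 0.03 in yolk sac. Without the liver library the difference was 0.11 (exact permutation test, 2-sided, p = 0.0227). Without brain of E10.25 it was 0.05 (exact p = 0.214), and over the 9 libraries with the lower band at 3.15 or less it was 0.06 (exact p = 0.226).

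**Figure D4:**
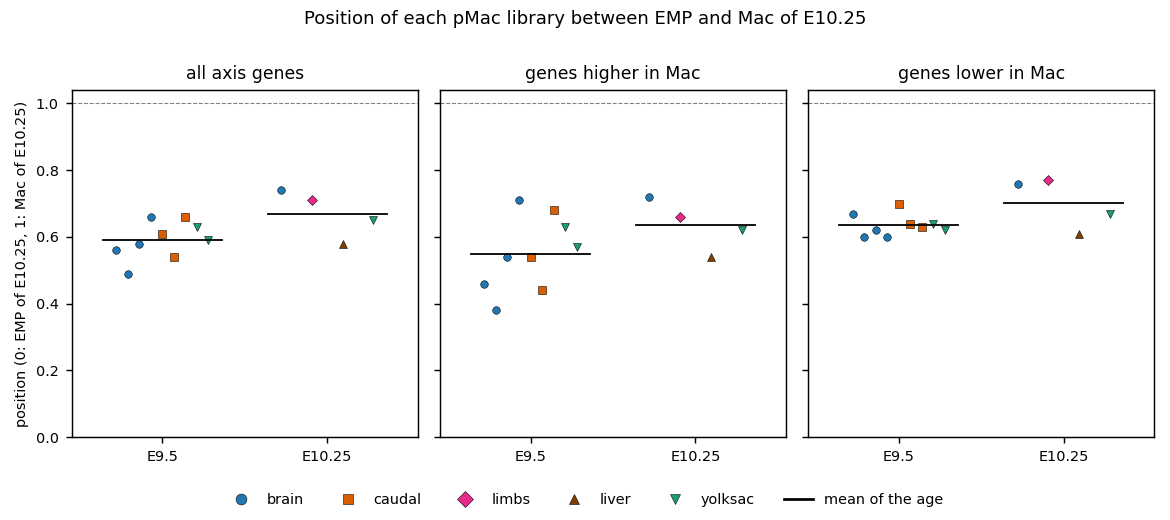
Position of each pMac library on the scale from EMP (0) to Mac (1) of E10.25 (y axis) by age (x axis), for all 1103 axis genes and for the 582 genes higher and 521 lower in Mac, with tissue by colour and shape and a line at the mean of each age. Brain and limbs of E10.25 lie at 0.74 and 0.71, yolk sac at 0.65, liver at 0.58, and the libraries of E9.5 between 0.49 and 0.66 in the left panel.

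Gene lists for macrophage functions were read for the ages as counts and medians, beside a median of −0.08 over all genes. No member of any list was called, as for all genes (0%). The members named below because of their p or their library values were picked after these values were seen. In the macrophage core list 14 of 25 genes were higher and the median difference was 0.13, or −0.02 over the 9 libraries with the lower band at 3.15 or less. The 2 core genes with an unadjusted p under 0.05 (5.05% of all genes) were Adgre1, which encodes a surface glycoprotein of mature macrophages, and Trem2, a lipid-sensing receptor. Adgre1 lay at 10.26, 9.41, 8.41 and 9.02 in brain, limbs, liver and yolk sac of E10.25 and between 5.27 and 9.72 at E9.5 (difference 1.46 ± 0.68, limma, adjusted p = 0.958). The ages of both genes overlap.

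The lists of degradation and uptake had medians above 0, also after median scaling and after quantile normalization. So had the lists of mitochondrial oxidative phosphorylation and of hypoxia and glycolysis, both with a median of 0.07, so this is not particular to degradation and uptake. Over all 11233 genes tested, 4745 were higher. Of 22 lysosomal proteases and hydrolases 18 were higher, with a median of 0.13 and a range of −0.23 to 1.15. None of them had an unadjusted limma p under 0.05. The mean level of that list ran from 10.69 to 11.31 at E10.25, inside the E9.5 range of 9.51 to 12.23. Of 13 iron and heme genes 11 were higher, with a median of 0.30. Hmox1, which breaks down heme, differed by 1.22 ± 0.41, and the iron exporter Slc40a1 by 1.91 ± 0.74, while the transferrin receptor Tfrc, by which cells take up iron, differed by −1.08 ± 0.34 (limma, adjusted p = 0.807, adjusted p = 0.889 and adjusted p = 0.72). Among 17 phagocytic and complement receptors the median was 0.12. The Fc receptor Fcgr3 differed by 0.87 ± 0.33 and the beta-glucan receptor Clec7a by 0.97 ± 0.39, both toward E10.25, and the integrin Itgax by −2.45 ± 0.75. List members called higher with library weights included Tfec, Clec7a, Slc40a1, the cytokine and chemokine receptors Il13ra1 and Ccr1, the granule enzyme Mpo and the transglutaminase F13a1, and those called lower included Ccnd2, Flt1, the fatty acid receptor Gpr84 and the imprinted Ndn.

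Among 14 progenitor genes 9 were lower, with a median of −0.18 that became −0.04 after median scaling and −0.06 after quantile normalization, so no direction is given for this list. Without the liver library it was −0.40. Lmo2, a scaffold of blood progenitor transcription complexes, lay at 10.81, 10.74, 11.54 and 10.43 in brain, limbs, liver and yolk sac of E10.25 and between 11.57 and 12.91 at E9.5. The ages of Lmo2 do not overlap, and the difference was −1.09 ± 0.29 (limma, adjusted p = 0.48). Myc, a driver of growth, differed by −1.09 ± 0.31, with 11.55, 11.73 and 11.40 in brain, limbs and yolk sac of E10.25 and 12.41 to 13.60 at E9.5, and only liver of E10.25 reached the E9.5 range. Kit, the receptor that marks EMP, lay at 5.15 in brain and 5.79 in limbs of E10.25, against 6.69 to 9.27 at E9.5. Liver and yolk sac of E10.25, at 8.85 and 7.15, lie inside that range, and the difference was −0.97 ± 0.61 (limma, adjusted p = 0.999). Only 3 of the 4 libraries of E10.25 had a Kit transcript above the floor.

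The cell cycle list had a median of −0.15 over 30 genes, which became −0.01 after median scaling and 0.03 after quantile normalization, so no direction is given for it. Mki67 and Top2a, both made in dividing cells, differed by 0.33 ± 0.44 and −0.05 ± 0.43. Of 16 immediate early and dissociation stress genes 13 were lower, with a median of −0.54. Jun and Zfp36 differed by −1.09 ± 0.43 and −0.74 ± 0.31, Fos by 0.07 ± 0.53, and the heat shock gene Hspa1a by 1.66 ± 0.75. The cytokines Tnf and Ccl3 lay lowest in brain of E10.25, at 5.34 and 8.41, while liver, at 9.06 and 10.70, lay inside the E9.5 ranges of 8.74 to 10.03 and 9.85 to 11.69. Their differences were −1.75 ± 0.50 and −1.32 ± 0.38 (limma, adjusted p = 0.556 and adjusted p = 0.598). Genes of this kind also respond to the handling of cells, and the part of handling was not tested.

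The antigen presentation genes H2-Ab1 and Cd74 split the E9.5 libraries into high and low ones, and interferon genes varied widely between them. H2-Ab1, a chain of the MHC class II molecule, lay at 12.32 and 11.02 in brain replicates 3 and 4, 15.56 in caudal replicate 3 and 13.45 and 12.49 in the yolk sac of E9.5. In brain replicates 1 and 2 and caudal replicates 1 and 2 it lay at 6.67, 6.41, 8.01 and 6.99, and in brain, limbs, liver and yolk sac of E10.25 at 6.61, 7.89, 6.48 and 8.14. Some libraries of E9.5 thus had it at the level of E10.25 and others far above it. Cd74, the invariant chain that escorts class II molecules, lay at 6.0, 6.46, 12.77 and 11.44 in brain replicates 1 to 4, at 5.18, 6.37 and 15.96 in caudal replicates 1 to 3 and at 14.17 and 12.92 in the yolk sac of E9.5, so it was high and low in the same libraries. The difference of H2-Ab1 between the ages was −3.04 ± 1.37 (limma, adjusted p = 0.953). It was −2.39 without caudal replicate 3, −2.96 without brain replicate 4 and −3.70 over the 9 libraries with the lower band at 3.15 or less. Of 18 interferon response genes 17 were lower at E10.25, with a median of −0.67, and none had an unadjusted p under 0.05. The mean level of that list ran from 6.72 to 10.56 over the libraries of E9.5 and from 6.59 to 8.08 over those of E10.25. Ly6c2, a monocyte marker, lay at 4.06, 4.97, 8.42 and 3.75 in brain replicates 1 to 4, at 4.21, 3.43 and 7.08 in caudal replicates 1 to 3 and at 8.0 and 7.37 in the yolk sac of E9.5. The monocyte list ran from 6.57 to 9.56 at E9.5 and from 7.39 to 7.98 at E10.25, and its part in the result was not tested. In bulk libraries a change in the share of a cell type cannot be told apart from a change of RNA per cell.

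**Figure D5:**
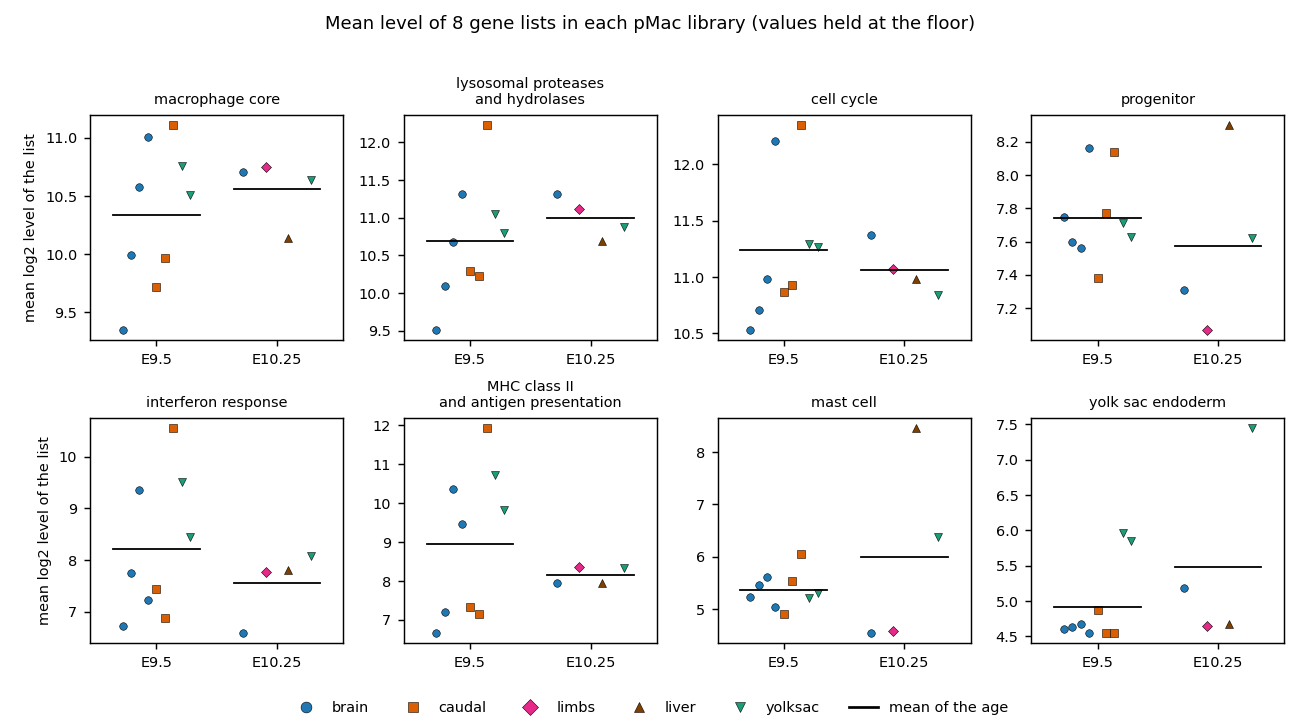
Mean log2 level of 8 gene lists (y axis, genes held at the floor of 4.55) in each pMac library by age (x axis) and tissue (colour and shape), with a line at the mean of each age. The class II list covers 6.67 to 11.93 at E9.5 and 7.94 to 8.36 at E10.25, the mast cell list is highest in liver (8.46) and the yolk sac endoderm list in yolk sac of E10.25 (7.45).

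Genes of other cells were high in liver, yolk sac and brain of E10.25. The liver library had a mean of 8.46 over the 4 mast cell genes in the table, against 4.55 to 6.38 in the other 12 libraries, with Cpa3, a mast cell protease, at 7.53 and the progenitor factor Gata2 at 8.54. Of the 10 genes on the mast cell list only 1 was tested. Gata2 and Kit (8.85 in liver) also stand on the progenitor list, so both lists share part of this signal. The progenitor list mean of the liver library, 8.30, and its neutrophil granule list mean, 7.60, were the highest of the 13, and Mpo lay at 14.03. Of the granule list, Ltf, Camp, Ngp, S100a8, S100a9 and Lcn2 were too low in the pMac libraries to be tested. Mpo was also high in EMP of E10.25, at 13.79 ± 0.45. The liver library was also the lowest of E10.25 on the scale from EMP to Mac, and the part of progenitor or granulocyte RNA in that was not tested. The 4 libraries of E10.25 had Mpo at 12.08, 12.31, 14.03 and 12.44, and those of E9.5 between 10.10 and 13.73 (difference 1.35 ± 0.50, limma, adjusted p = 0.874).

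The yolk sac library of E10.25 had a mean of 7.45 over 13 yolk sac endoderm genes, with Afp at 10.78 and Apoa1 at 10.55. Both yolk sac libraries of E9.5 had lower means, 5.97 and 5.85, and the other 10 libraries had 4.55 to 5.18. None of the 24 genes described above stands on the list of yolk sac endoderm. The means of the neural, mesenchymal and epithelial lists lay at 6.11 or less in every library, and none of the mesenchyme genes was high enough to be tested. Single members lay higher. The neural gene Sox11 lay at 9.70 in brain replicate 4 of E9.5 and at 8.36 in brain of E10.25. Krt18 of the epithelium list reached 7.43 in yolk sac of E9.5. Of the erythroid list, Klf1, Slc4a1 and Rhag lay under the floor in all 13 libraries, while the embryonic globin Hbb-y lay at 9.56, 6.43, 4.42 and 8.48 in brain, limbs, liver and yolk sac of E10.25 and between 6.02 and 8.49 at E9.5. Brain of E10.25 was also the highest of the 13 libraries in the globins Hba-x (9.74) and Hba-a2 (9.44). Its neural list mean, 5.77, lay above the other libraries of E10.25 (4.98 to 5.10) and below brain replicate 4 of E9.5 (6.03). This library was the highest on the scale from EMP to Mac, and the part of blood or neural RNA in its values was not tested.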

How the data were processed

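Per the file headers, the deposited table holds log2 values, 1 for each library and Ensembl transcript. Base 2 was inferred from their range (0.836 to 19.0), and the sources used here do not give the normalization. The submitters' processing notes name Bowtie 1.1.1, DESeq2 and mm10, with no roles. The table holds no counts, so depth is unknown, and the number of libraries limits the precision.

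Identifiers put 36714 of the 37521 transcripts in a gene of the GENCODE vM21 annotation of mm10 and left 807 without one. Transcripts were summed per gene, and SMART-Seq2 does not mark strand, so overlapping genes cannot be told apart. The ages were compared over the 13 pMac libraries with limma (version 3.58.1, R 4.3.3), using an intensity trend and no covariate, and the script was tested on simulated data. The plan named a count test should the table hold counts, and limma was used since it does not. The genes named are the 12 with the smallest p in each direction among those at 6.55 or more in the higher group and of the same sign with values held at the floor, both markers, and from each list the genes with the highest level. The members and lists were chosen with earlier results of these data known. The 36 lists were read as counts and medians, with no set test. Positions and markers were compared with exact permutation tests over 715 splits, of which the smallest p is 0.0014. The replicate number was not used as a block, since each tissue of E10.25 has 1 library. Some list members are not reported here.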

Additional observations from a re-analysis of the deposited data

Results flagged for a closer look

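Of 128 sets of values, 10 held 1 library far from the others of its age by Dixon's criterion at 95%, and chance flags about 1 in 20 such sets. Brain replicate 4 of E9.5 was the highest of its age by a wide gap in Vim (13.17, next 11.55), Trim71 (10.93, next 9.99), Ets2 (11.32, next 10.22) and the mean of the neural and neural crest list (6.03, next 5.46). This library has the fewest transcripts above the floor (23963) and the lowest weight (0.19). The brain library of E10.25 was likewise the highest of its age in the neural list, at 5.77 with the next at 5.10.

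The liver library of E10.25 stood apart in 3 lists. It was the lowest in pattern recognition receptors (6.78, next 7.31) and in complement components (7.66, next 8.72) and the highest in neutrophil granule genes (7.60, next 6.96). Caudal replicate 3 of E9.5 was the highest in cholesterol and lipid handling, at 10.20 with the next at 9.20. Yolk sac replicate 1 of E9.5 was the highest in the epithelium list, at 6.11 with the next at 4.99.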

How the results depend on the processing

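No gene was called under most alternatives, as in the fit reported (0, with 567 genes at an unadjusted p under 0.05). Calls appeared with library weights (110, of which 45 higher and 65 lower at E10.25), quantile normalization (5, of which 3 higher and 2 lower) and median scaling (2, 1 in each direction). Median scaling moved the median difference of all genes from −0.08 to 0.06 and quantile normalization moved it to 0.02. Alternatives chosen after seeing the data gave 2 calls (1 in each direction) without the 3 libraries with the fewest transcripts, 1 lower gene (Ccnd2) with the band set as a term, and 0 over the 9 libraries with the lower band under 3.4. Leaving out 1 library at a time gave 0 to 1 calls, 0 to 1 in each direction: Ccnd2 without brain replicate 1 and Glipr1 without brain replicate 4 of E9.5. The replicate number as a block gave 0 calls and 824 genes at an unadjusted limma p under 0.05; at E9.5 the 3 same-numbered pairs of brain and caudal embryo had correlations of 0.14 to 0.26 in their deviations, against −0.21 to 0.09 for other brain and caudal pairs, and same-numbered pairs with yolk sac had −0.02 to 0.09. The shared numbers of brain and caudal embryo are thus a hint from the data, not from the labels, and they do not link the ages, since each tissue of E10.25 has 1 library. With tissue group as a term 0 genes were called, and liver then carries no weight in the age difference.

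The difference in position passed an exact permutation p of 0.05 with axis genes of a log2 difference of at least 1 (0.08, p = 0.0476), with values held at the floor (0.09, p = 0.0252), without the liver library (0.11, p = 0.0227) and without the 3 libraries with the fewest transcripts (0.10, p = 0.0333). Leaving out 1 library at a time gave 0.05 to 0.11 (exact p = 0.0227 to 0.214), with p under 0.05 without liver of E10.25, brain replicate 4 (0.0444) or caudal replicate 3 (0.0485) of E9.5. The cause of these shifts was not tested. Of 3740 values of 117 named genes under alternatives, 47 were calls, 35 of them with library weights, and none was a call of the other sign. Without counts no limit from depth can be given. The median SE of 0.43 leaves differences under about 1 unresolved, and larger ones were not called in the main fit either. Examples are Ccnd2 at −1.92 (limma, adjusted p = 0.183) and Gpx8 at −2.95 (limma, adjusted p = 0.403).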

Other observations

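Outside the lists, the weighted fit called Met, the receptor of hepatocyte growth factor, higher at E10.25 (1.71 ± 0.33, limma, adjusted p = 0.0167) and Ly86, the partner of the receptor RP105 on myeloid cells, higher (1.35 ± 0.27, limma, adjusted p = 0.0191). Tgm2, a transglutaminase, was called lower (−2.26 ± 0.45, limma, adjusted p = 0.0194), as was Ifrd1 (−1.24 ± 0.21, limma, adjusted p = 0.0093). Ppan and Polr3d, which act in ribosome assembly and in RNA polymerase III, were called lower by that fit as well, with differences of −1.06 and −1.27. Without weights none of the 6 genes passed, with limma adjusted p-values between 0.419 and 0.945. These genes were picked after their values were seen.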
